A study of Mus musculus with 12 samples.

Results

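The axon guidance families of semaphorins, plexins, neuropilins, Eph receptors, ephrins, Robo receptors, Slits, netrins and teneurins were described in mouse melanoma cells with and without interferon-gamma (IFNG). Members were taken by gene symbol, and 66 of the 55416 gene IDs in the count data matched. Of these, 52 reached a level of 1 CPM (reads of a gene per 1000000 counts of the library) in at least 3 of the 12 libraries and are reported here. They are 18 semaphorins, 9 plexins, 2 neuropilins, 8 Eph receptors, 6 ephrins, 2 Robo genes, 2 Slit genes, 3 netrins and 2 teneurins. The 14 members below that level were Efna2, Efna3, Epha1, Epha10, Epha4, Epha6, Epha8, Ntn5, Robo3, Sema3d, Sema5b, Slit3, Tenm1 and Tenm2. At the limit, the third-highest library stood at 0.797 CPM for Efna2 and 0.777 for Epha1 just outside it, and at 1.55 for Efna1 and 1.94 for Efnb3 just inside it.

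RNA-seq libraries of total RNA came from 2 melanoma lines grown in culture, pigmented B16 cells and YUMM1.1 cells, the latter established from Braf-mutant melanoma of a mouse model. Each line was either left untreated or given recombinant mouse IFNG at 10 ng/ml for 48 h, and each of the 4 groups had 3 libraries. The study's design compares treated with untreated cells of each line. Each line stands for 1 tumour source, so a difference between the lines and any batch of a line cannot be told apart. Nothing in the labels ties the 3 libraries of a group to separate cultures, and p-values therefore reflect the spread between libraries alone.

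Semaphorins are secreted or membrane-bound ligands that signal through plexins, for several class 3 members with a neuropilin as co-receptor, and steer cell migration, adhesion and vessel growth. Ephrins are bound to the membrane and signal on contact through Eph receptor tyrosine kinases, and Slits act on Robo receptors. Melanocytes descend from the neural crest, whose migrating cells use these systems, and many of the genes are also expressed in melanoma. GAS and ISRE elements are promoter motifs known from interferon-responsive genes.

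Promoter windows of 300 bases, from 250 before to 50 after an annotated start, were found for 44 of the 52 genes in a RefSeq table on GRCm38.p6, as 60 windows. They were searched on both strands for a GAS motif (TTCNNNGAA), an ISRE motif (GAAA and GAAA with any 2 bases between them) and the MITF M-box (TCATGTG), where N is any base. GAS matched 3 of the 60 windows (5%, against 8.3% of all 32851 windows in the table), ISRE matched 3 (5%, against 3.44%) and the M-box matched 0 (against 3.77%). The windows with a GAS match were those of Sema3e, Tenm3 and Epha3, and those with an ISRE match those of Tenm4, Plxnc1 and Sema6b. A match is a run of letters, not a measured binding site. The sequences shown belong to the genes that changed in both lines, Sema3g and Tenm4, and to Plxnc1 and Sema3e, which rose in B16 and hold a match. Motif letters are in capitals, and each sequence is given 5′ to 3′ on the strand of its gene. Tenm4 has a second annotated window, at chr7:96211421-96211720, with no match.
Sema3g, chr14:31217623-31217922, plus strand, no match: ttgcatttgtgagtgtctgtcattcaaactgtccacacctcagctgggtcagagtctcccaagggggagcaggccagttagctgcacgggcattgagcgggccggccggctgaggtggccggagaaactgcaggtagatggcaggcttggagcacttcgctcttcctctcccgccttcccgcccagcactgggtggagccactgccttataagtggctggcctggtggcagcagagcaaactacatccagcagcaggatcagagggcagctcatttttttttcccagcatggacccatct
Tenm4, chr7:96170994-96171293, plus strand, ISRE: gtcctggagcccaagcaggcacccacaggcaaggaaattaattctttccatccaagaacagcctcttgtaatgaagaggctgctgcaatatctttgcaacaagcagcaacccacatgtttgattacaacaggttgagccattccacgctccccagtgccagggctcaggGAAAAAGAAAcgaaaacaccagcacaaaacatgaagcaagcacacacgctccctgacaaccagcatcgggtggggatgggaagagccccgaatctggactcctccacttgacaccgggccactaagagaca
Plxnc1, chr10:94944796-94945095, minus strand, ISRE: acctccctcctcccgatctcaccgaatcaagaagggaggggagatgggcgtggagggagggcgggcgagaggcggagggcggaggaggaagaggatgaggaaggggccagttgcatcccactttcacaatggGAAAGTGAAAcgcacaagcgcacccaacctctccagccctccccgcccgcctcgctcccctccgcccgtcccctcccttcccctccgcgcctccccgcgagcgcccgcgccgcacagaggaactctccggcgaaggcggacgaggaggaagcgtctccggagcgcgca
Sema3e, chr5:14025026-14025325, plus strand, GAS: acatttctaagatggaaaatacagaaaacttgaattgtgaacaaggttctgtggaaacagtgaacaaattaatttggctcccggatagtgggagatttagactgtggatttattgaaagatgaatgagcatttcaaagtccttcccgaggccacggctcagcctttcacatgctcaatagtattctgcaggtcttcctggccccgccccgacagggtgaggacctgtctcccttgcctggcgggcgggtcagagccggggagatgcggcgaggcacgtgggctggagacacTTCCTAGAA
The Tenm4 match begins 81 bases before the start, the Plxnc1 match begins 118 bases before it, and the Sema3e match begins 41 bases after it.

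Depth was lower in B16, with 2573805 to 7888257 counts per library, than in YUMM1.1, with 19145253 to 24747859. Genes of a few CPM therefore rest on few reads in B16. All 10 melanocyte markers stood at a mean of 1 CPM or more in B16, and their summed level was 29530 to 29700 CPM untreated and 36410 to 38510 after IFNG. In YUMM1.1 only 4 of the 10 did, namely Sox10, Pax3, Mitf and Pmel, with a summed level of 723 to 820 CPM and Tyr, Tyrp1, Dct and Mlana near 0. Leukocyte markers summed to at most 7.18 CPM in any library, with at most 2 of 9 at 1 CPM, and endothelial markers to at most 3.497 CPM, with at most 1 of 6. Fibroblast markers summed to 10.7 to 20.2 CPM in B16 controls, 7.35 to 68.0 CPM in treated B16 libraries and 760.4 to 1171 CPM in YUMM1.1. Nearly all of the YUMM1.1 sum was Col3a1 (a mean of 901 CPM untreated, against 1.98 in untreated B16). Col1a1 was also higher there (5.723 against 2.515 CPM in untreated B16). Col1a2 was lower (0.704 against 5.31 CPM), as were Pdgfra (3.675 against 4.858), Pdgfrb (0.265 against 0.5603) and Dcn (0.0298 against 0.501 CPM). Dcn, Pdgfrb and Lum (0.01741 against 0 CPM) were below 1 CPM in both untreated lines. By counts, the third treated B16 library stood apart: mitochondrial transcripts made up 1.95% of its counts against 1.07% and 1.04% in the other treated B16 libraries. In YUMM1.1 the first control library stood at 1.104% against 0.560% and 0.622% in the other controls.

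After IFNG, B16 cells showed changes in most of the guidance genes that could be tested, in both directions. Sema3g rose the most of the members tested, while Tenm4, Sema3c and Sema6a fell to a small part of their untreated levels. Genes are called here where edgeR's quasi-likelihood test gave a p below 0.05 after Benjamini-Hochberg adjustment over all genes tested. Of 37 members tested, 11 rose, 15 fell and 11 were not called, so 70.3% were called against 44.1% of all 11240 genes tested (22.1% higher and 22.0% lower). The median log2 change of the 37 was -0.38, against -0.01 over all tested genes. Without the third treated B16 library the counts were 11 higher and 20 lower. Changes are relative to scaling by TMM factors, and library totals alone shifted the median over all genes by -0.19 and gave 10 higher and 19 lower. In bulk RNA, fewer cells expressing a gene and less of its RNA per cell cannot be told apart.

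**Figure D1:**
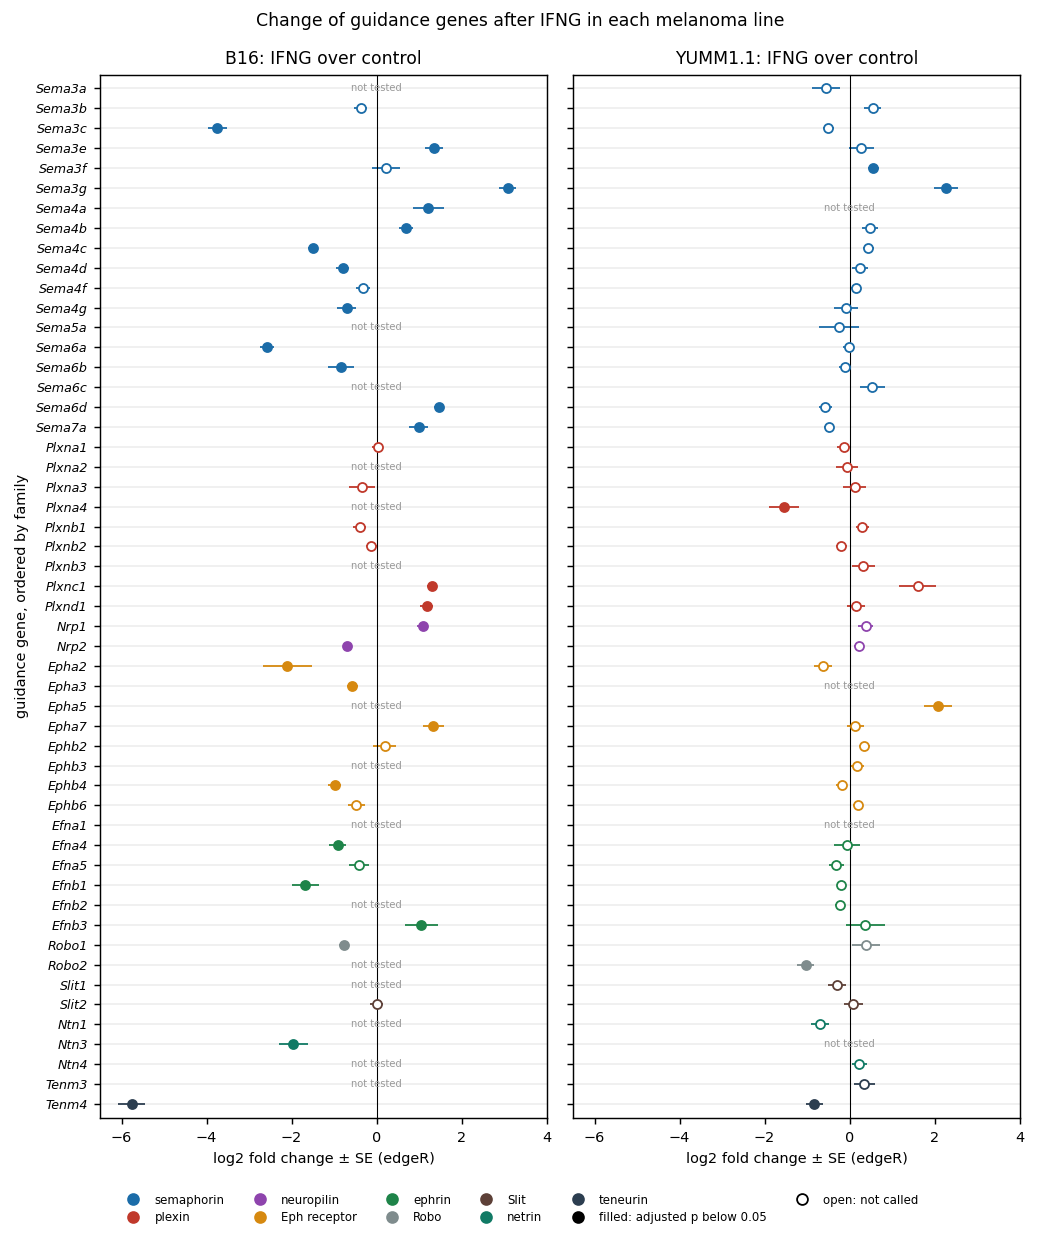
Log2 fold change of each reported guidance gene after IFNG, with its SE, in B16 (left) and YUMM1.1 (right), from 3 treated and 3 control libraries per line. Filled points passed an adjusted p of 0.05. In B16 they reach from -5.77 for Tenm4 to 3.08 for Sema3g, while in YUMM1.1 only 6 points are filled.

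Among the 15 semaphorins tested in B16, 6 rose and 6 fell. Sema3g, a secreted class 3 semaphorin, stood at 4.69, 5.98 and 5.05 CPM in the untreated libraries and at 43.9, 41.1 and 31.5 CPM after IFNG. The lowest treated library was far above the highest control, and the log2 change was 3.08 ± 0.20 (SE, n = 3 and 3, edgeR adjusted p = 2.17e-06). Sema3c, another secreted class 3 member, moved the other way, from 15.2, 17.7 and 17.9 CPM to 1.17, 0.994 and 1.05 CPM. Its groups did not overlap (log2 -3.75 ± 0.22, edgeR adjusted p = 1.20e-06). Sema6a, a transmembrane semaphorin that binds class A plexins, fell from 21.2, 19.3 and 19.8 CPM to 3.17, 2.78 and 2.86 CPM (log2 -2.58 ± 0.17, edgeR adjusted p = 2.75e-06). Its close relative Sema6d rose instead, from 29.3, 30.7 and 29.1 CPM to 82.2, 68.0 and 65.8 CPM (log2 1.47 ± 0.13, edgeR adjusted p = 1.49e-05). These class 6 relatives thus moved in opposite directions, each with treated and control libraries well apart.

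Sema4c, a transmembrane ligand of plexin-B2, fell from 96.1, 95.01 and 98.7 CPM to 30.6, 33.6 and 26.1 CPM (log2 -1.49 ± 0.12, edgeR adjusted p = 9.47e-06), with no overlap. Sema3e, a secreted ligand that binds plexin-D1 without a neuropilin, rose from 6.72, 5.98 and 8.55 CPM to 11.5, 17.3 and 17.2 CPM (log2 1.35 ± 0.22, edgeR adjusted p = 9.22e-04). The other semaphorins that rose were Sema4a (log2 1.21), Sema7a (0.99), which is tethered to the membrane by a lipid anchor, and Sema4b (0.70). The others that fell were Sema6b (-0.85), Sema4d (-0.80), the ligand of plexin-B1, and Sema4g (-0.71). Sema4a, Sema4g and Sema6b were near the limit, with adjusted p-values of 0.0211, 0.0277 and 0.0475, and each lost its call in 4 or 5 of the alternative fits. The most abundant semaphorin per exon length in B16, Sema3b, stood at 209, 189.6 and 175 CPM untreated and at 142, 144 and 101 CPM after IFNG. Its groups did not overlap, and the log2 value of -0.38 did not pass (edgeR adjusted p = 0.0607). It passed without the third treated library, at a smaller log2 value of -0.24 (edgeR adjusted p = 0.0108). Sema3f and Sema4f were not called either.

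Of 6 plexins tested in B16, the 2 called, Plxnd1 and Plxnc1, rose and 4 were not called. Plxnd1, the receptor of Sema3e, had 766, 726 and 716 CPM in the controls and 1673, 1609 and 1084 CPM after IFNG. Each treated library was above each control, the third by the smallest margin (log2 1.18 ± 0.15, edgeR adjusted p = 2.46e-04, and 1.36 ± 0.05 without that library). Plxnc1, the receptor of Sema7a, rose from 144, 150.2 and 162 CPM to 309, 294 and 378 CPM, again with no overlap (log2 1.30 ± 0.11, edgeR adjusted p = 1.55e-05). Plxnd1 and its ligand Sema3e were thus both called higher in B16, and so were Plxnc1 and its ligand Sema7a. Other pairs were not called together. Sema4c and Sema4d fell, while their receptors Plxnb2 and Plxnb1 were not called. Sema6a fell, while the class A plexins tested, Plxna1 and Plxna3, were not called. Plxnb2 had 794, 757 and 745 CPM untreated and 693, 663 and 488 CPM treated, and Plxna1 had 682, 642 and 628 against 649, 635 and 447 CPM. Neither was called (log2 -0.12 and 0.02), and in both genes the third treated library was the lowest of the 6.

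The neuropilins moved apart. Nrp1, a co-receptor of class 3 semaphorins and of VEGF, rose from 27.9, 33.9 and 33.4 CPM to 58.3, 64.996 and 51.5 CPM (log2 1.08 ± 0.14, edgeR adjusted p = 2.02e-04). Nrp2, a second such co-receptor and the more abundant of the pair in B16, fell from 676, 703 and 749 CPM to 404, 399 and 353 CPM (log2 -0.69 ± 0.09, edgeR adjusted p = 2.45e-04). Neither gene's treated libraries overlapped the controls.

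Of 6 Eph receptors tested in B16, 1 rose and 3 fell. Epha7 rose from 3.93, 3.19 and 3.497 CPM to 8.85, 5.96 and 8.89 CPM (log2 1.34 ± 0.24, edgeR adjusted p = 0.00163). Epha2, a receptor much studied in tumour cells, went from 3.80, 3.19 and 3.11 CPM to 0.334, 1.79 and 0.151 CPM. The groups were separate but the treated libraries differed widely at this depth (log2 -2.10 ± 0.57, edgeR adjusted p = 0.0148), and without the first control library the adjusted p was 0.0758. Ephb4, the receptor of ephrin-B2 and the most abundant Eph gene per length in B16, fell from 63.3, 54.8 and 55.9 CPM to 31.2, 24.6 and 21.1 CPM (log2 -0.99 ± 0.16, edgeR adjusted p = 8.63e-04). Epha3 fell as well (log2 -0.57, edgeR adjusted p = 0.00688), while Ephb2 and Ephb6 were not called. Ephb4 shares 33 exon bases with the gene Zan, so reads there could belong to either.

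Of 4 ephrins tested in B16, 2 fell, 1 rose and 1 was not called. Efnb1 fell from 11.7, 8.37 and 12.4 CPM to 3.67, 3.78 and 1.51 CPM, with no overlap (log2 -1.68 ± 0.32, edgeR adjusted p = 0.00241). Efna4 fell by 0.92 on the log2 scale. Efnb3 was called higher (log2 1.05 ± 0.38, edgeR adjusted p = 0.0483), from 16 reads over the untreated group, and lost the call in 9 of 12 alternative fits. Efna5, the most abundant ephrin per length in B16, stood at 20.0, 18.9 and 23.7 CPM untreated and at 15.2, 8.15 and 16.6 CPM treated. Its log2 value of -0.42 was not called (edgeR adjusted p = 0.177), but passed without the third treated library (0.014).

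Tenm4, a transmembrane teneurin that takes part in cell adhesion and binds latrophilins, had the strongest change of all members in B16. It went from 16.1, 16.1 and 13.2 CPM to 0.334, 0.199 and 0.151 CPM, so that 4 reads were left over the 3 treated libraries (log2 -5.77 ± 0.32, edgeR adjusted p = 7.08e-07). It shares 988 exon bases with the gene C230038L03Rik. Robo1, a Slit receptor, stood at 55.5, 56.0 and 54.8 CPM untreated and fell to 28.2, 28.6 and 28.01 CPM, a narrow spread in each group (log2 -0.78 ± 0.11, edgeR adjusted p = 2.88e-04). The only Slit gene tested in B16, Slit2, had 6.97, 8.56 and 6.61 CPM untreated and 7.35, 6.16 and 6.02 CPM treated, which overlap, and was not called. Ntn3, a netrin, fell from 5.45, 3.98 and 3.89 CPM to 1.17, 1.39 and 0.602 CPM (log2 -1.96 ± 0.35, edgeR adjusted p = 0.00156), and it shares 228 exon bases with neighbouring genes, Tbc1d24 among them.

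**Figure D2:**
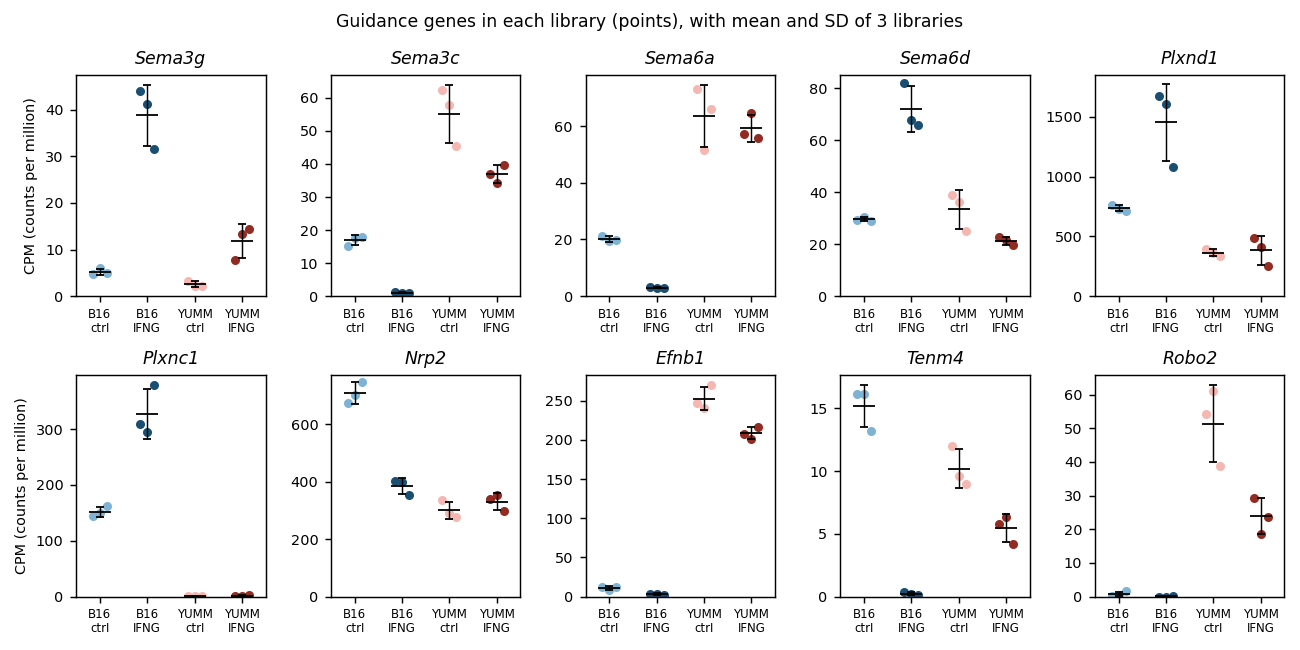
CPM of 10 guidance genes in each of the 12 libraries (points), with the mean and SD of the 3 libraries of each group (bars). Treated B16 libraries lie apart from the controls in 9 of the panels, and Robo2 is near 0 in B16. In YUMM1.1, Sema3g lies higher and Tenm4 and Robo2 lower after IFNG, each called. Plxnc1 also lies higher and Sema3c, Sema6d and Efnb1 lower there, with groups apart but no call.

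YUMM1.1 cells showed few called changes in guidance genes after IFNG. Their libraries were the deeper ones, but depth alone does not set how many changes can be called. Chi-square per degree of freedom between libraries of a group, which also grows with depth, was 14.0 to 41.5 for YUMM1.1 controls. It was 13.5 to 30.7 for treated YUMM1.1, against 1.55 to 3.26 for B16 controls and 1.27 to 17.2 for treated B16. Sema3g, Epha5 and Sema3f rose, and Plxna4, Robo2 and Tenm4 fell. These 6 were 12.5% of the 48 members tested, against 4.56% of all 12970 genes tested (3.73% higher and 0.825% lower), and the median log2 change was 0.12 against -0.01 over all genes. The count depended on the fit: DESeq2 and a fit of all 12 libraries each called 5 higher and 6 lower, no filter 6 and 8, and library totals 2 and 5. Without the first control library edgeR called 3 members higher and 0 lower, with adjusted p-values of 0.0858 for Plxna4, 0.0548 for Robo2 and 0.127 for Tenm4. The size of these falls held over all alternative fits, at a log2 of -1.80 to -1.25 for Plxna4, -1.20 to -0.88 for Robo2 and -0.96 to -0.68 for Tenm4, and Robo2 lost its call in only 1 of 14.

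Sema3g rose from 3.26, 2.25 and 2.26 CPM to 7.69, 13.3 and 14.5 CPM in YUMM1.1, with no overlap (log2 2.26 ± 0.27, edgeR adjusted p = 5.68e-04). It was called in each alternative fit, and so was Epha5, an ephrin-A receptor. Epha5 rose from 1.61, 1.98 and 1.59 CPM to 4.26, 6.34 and 10.0 CPM (log2 2.07 ± 0.32, edgeR adjusted p = 0.00344). Sema3f, a secreted ligand that signals through neuropilin-2, is far more abundant: it went from 224, 211 and 195 CPM to 255, 288 and 335 CPM. That change was small (log2 0.56 ± 0.13, edgeR adjusted p = 0.0344) and lost its call in 6 alternative fits.

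Plxna4, a plexin that forms receptors for class 3 semaphorins with neuropilins, went from 9.03, 12.1 and 5.45 CPM to 3.85, 3.11 and 1.70 CPM (log2 -1.55 ± 0.34, edgeR adjusted p = 0.0311). Robo2, a second Slit receptor, went from 54.2, 61.0 and 38.7 CPM to 29.3, 18.6 and 23.6 CPM (log2 -1.03 ± 0.20, edgeR adjusted p = 0.0150). Tenm4 went from 11.98, 9.61 and 8.9995 CPM to 5.79, 6.30 and 4.17 CPM (log2 -0.84 ± 0.20, edgeR adjusted p = 0.0412), and leaving out any 1 of the 6 libraries raised its adjusted p to between 0.0587 and 0.127. In all 3 genes the treated libraries lay below the controls.

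Other members had separate groups in YUMM1.1 without passing the test. Plxnc1 was at 0.402, 0.575 and 0.669 CPM untreated and 1.58, 0.889 and 2.26 CPM treated (log2 1.60 ± 0.43, edgeR adjusted p = 0.0714). Sema7a was at 184, 160.3 and 149 CPM untreated and 104, 106 and 125 CPM treated (log2 -0.48 ± 0.12, edgeR adjusted p = 0.0546). Sema3c was at 62.2, 57.7 and 45.4 CPM untreated and 36.8, 34.2 and 39.8 CPM treated (log2 -0.50 ± 0.14, edgeR adjusted p = 0.0760). A missed threshold does not show that these genes stayed level. The most abundant plexin, Plxnd1, had 394, 365 and 334 CPM against 487, 409 and 252 CPM, and the treated group overlapped the controls at both ends. Efnb1, the most abundant ephrin, had 247, 241 and 269.7 CPM against 208, 201 and 217 CPM (log2 -0.20 ± 0.10, edgeR adjusted p = 0.400).

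Across both lines, Sema3g was called higher and Tenm4 lower in each. In the edgeR within-line fits given above no reported member was called in opposite directions. Alternative fits added calls in shared and in opposite directions. DESeq2, no filter and all 12 libraries in 1 fit each called Sema3c lower and Plxnc1 higher in both lines. No filter and a replicate block each called Epha2 lower in both. The opposite directions were as follows. With DESeq2, with no filter and with all 12 libraries in 1 fit, Sema6d and Sema7a were called higher in B16 and lower in YUMM1.1, and Sema4c the reverse. Scaling by library totals did so for Sema7a and no filter also for Sema3b. Without the third YUMM1.1 control, Sema6d was called lower in YUMM1.1 (edgeR adjusted p = 0.0154). Without the third treated YUMM1.1 library, Sema7a was (edgeR adjusted p = 0.0287). In YUMM1.1 the DESeq2 adjusted p was 0.0318 for Sema6d, 0.00983 for Sema7a and 0.0269 for Sema4c. The test of the difference, the log2 effect in YUMM1.1 minus that in B16 in 1 fit of all 12 libraries, called 17 of the 52 members (32.7%, against 18.5% of 13603 genes). It was positive for 13 members (9.95% of all genes) and negative for 4 (8.51%). Without the third treated B16 library it called 9 positive and 5 negative, and without the first B16 control 8 and 3.

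Of the 13 members with a positive difference, 9 were called lower in B16. Tenm4 differed by 5.02 ± 0.47 (edgeR adjusted p = 1.85e-06), although it was called lower in both lines. Sema3c differed by 3.28 ± 0.29 (edgeR adjusted p = 8.57e-07) and Sema6a by 2.58 ± 0.24 (edgeR adjusted p = 1.85e-06). Sema6a in YUMM1.1 had 73.1, 51.4 and 66.0 CPM untreated and 57.1, 64.6 and 55.7 CPM treated, which overlap. Sema4c differed by 1.95 ± 0.18 (edgeR adjusted p = 1.50e-06): in YUMM1.1 it stood at 135, 112 and 115 CPM untreated and 136, 171 and 159 CPM treated. Efnb1 differed by 1.51 ± 0.29 (edgeR adjusted p = 0.00180) and Nrp2 by 0.92 ± 0.16 (edgeR adjusted p = 5.43e-04). Plxnb3, a semaphorin receptor of class B, differed by 2.77 ± 0.92 (edgeR adjusted p = 0.0475), but in B16 it had only 2.16, 2.39 and 1.55 CPM untreated and 0.668, 0.199 and 0.151 CPM treated, and the call was lost in 13 of 20 alternative fits. Robo1 (1.18), Sema4d (1.07), Sema3b (0.94), Ephb4 (0.82), Plxnb1 (0.72) and Ephb6 (0.70) were the other positive calls.

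The difference was negative for Sema6d, Sema7a, Epha7 and Plxnd1, all of which rose in B16. Sema6d differed by -2.02 ± 0.22 (edgeR adjusted p = 9.81e-06), and in YUMM1.1 it stood at 39.0, 36.1 and 25.1 CPM untreated and 22.9, 21.5 and 19.6 CPM treated. Sema7a differed by -1.44 ± 0.25 (edgeR adjusted p = 7.18e-04). In B16 it had 4.44, 3.59 and 3.89 CPM untreated and 7.02, 8.35 and 5.87 CPM treated, well below its level in YUMM1.1. The difference for Sema3g, -0.80 ± 0.37, was not called (edgeR adjusted p = 0.146), nor was that for Nrp1, -0.68 ± 0.24 (edgeR adjusted p = 0.0639).

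**Figure D3:**
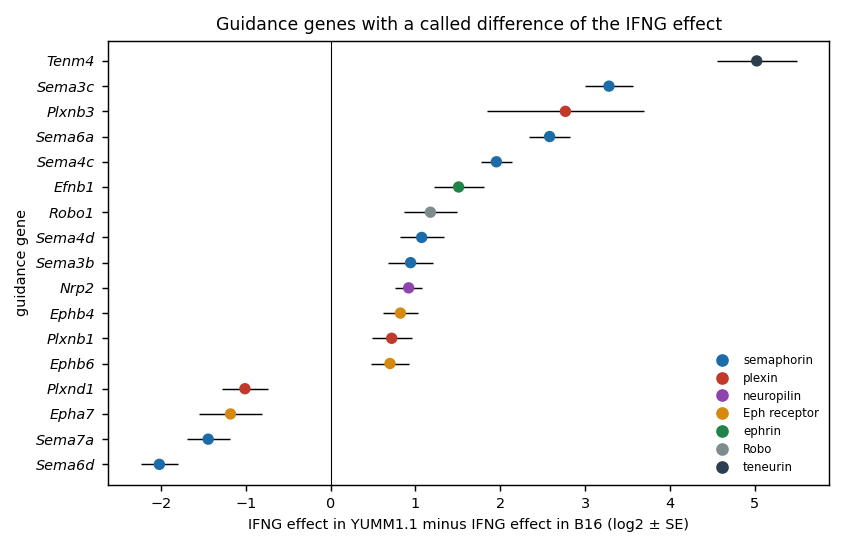
The 17 guidance genes whose IFNG effect differed between the lines, as the log2 effect in YUMM1.1 minus that in B16 with its SE, from 12 libraries. Values run from -2.02 for Sema6d to 5.02 for Tenm4, and 13 of the 17 lie above 0.

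The untreated lines differed in most of the reported guidance genes, with a different set of receptors and ligands prominent in each. Some members met the 1 CPM limit only through the line where they are high, so their difference was partly set by that limit. Tenm3, Ephb3, Plxna2, Slit1, Ntn1, Ntn4, Sema3a, Sema5a, Epha5, Robo2, Plxna4 and Sema6c reached it in 3 libraries only in YUMM1.1. Epha3, Efna1, Ntn3, Sema4a and Plxnc1 did so only in B16. The counts and shares below include all of these members and are partly set by the limit. In untreated B16, 10 of the 52 were below 1 CPM in all 3 libraries, and in untreated YUMM1.1 5 were. Of the 52 members, 30 were higher in YUMM1.1, 16 were higher in B16 and 6 were not called, so 88.5% were called against 68.1% of all genes tested (34.7% higher and 33.4% lower in YUMM1.1). Melanocyte markers differ between the lines in the same samples, as given above, and their part in these differences was not tested. Per exon length, as CPM per kilobase of exon (RPKM), the order in untreated B16 began with Plxnd1 at 101 ± 3.58 and Plxnb2 at 99.1 ± 3.33 (SD, n = 3), which did not differ beyond their spread. Plxna1 (71.8), Nrp2 (59.9) and Sema3b (40.0) followed. In untreated YUMM1.1 the order began with Efnb1 at 73.2 ± 4.34 RPKM and Sema3b at 71.8 ± 17.3, whose ranges overlap, then Plxnd1 at 49.9 ± 4.09 and Sema7a at 49.8 ± 5.49. B16 was thus led by receptors, and YUMM1.1 by ligands together with Plxnd1.

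**Figure D4:**
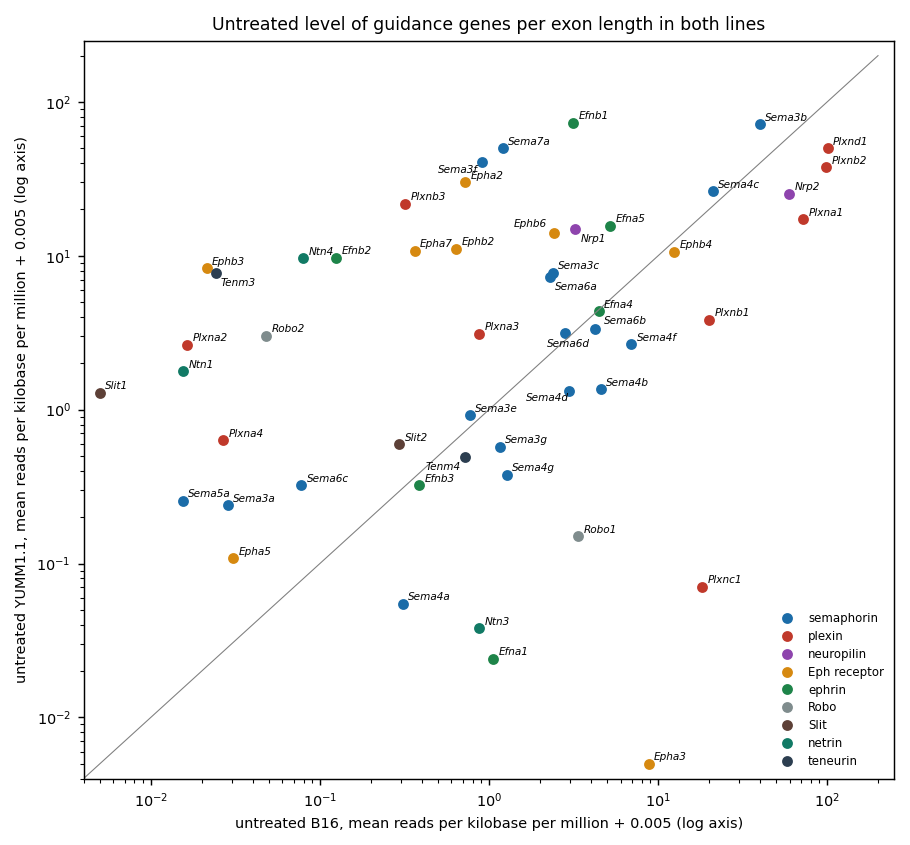
Mean level of each reported guidance gene in untreated B16 (horizontal) and untreated YUMM1.1 cells (vertical), in CPM per kilobase of exon plus an offset of 0.005 on log axes, 3 libraries each. Genes above the grey line of equality are higher in YUMM1.1. Efnb1, Sema7a and Sema3f lie far above it and Plxnc1, Epha3 and Robo1 far below.

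Members higher in YUMM1.1 included 10 of 18 semaphorins, with 6 higher in B16, and 6 of 8 Eph receptors, with 1 higher in B16. Sema7a was higher by a log2 of 5.55 ± 0.18 (edgeR adjusted p = 9.07e-14) and Sema3f by 5.83 ± 0.21 (edgeR adjusted p = 3.31e-13). Among Eph genes, Epha2 was higher by 5.55 ± 0.33 (edgeR adjusted p = 3.09e-10), with 173, 108 and 139.8 CPM in YUMM1.1. Epha7 (5.10) and Ephb2 (4.45) were also higher, and the ligands Efnb1 (4.77) and Efnb2 (6.61) with them. For genes with 1 to 3 reads in untreated B16, ratios of CPM carry wide counting intervals at 95%: Tenm3 was 624 times higher in YUMM1.1 (173 to 5152), Ephb3 432 times (119 to 3566) and Plxna2 357 times (98.7 to 2948). Slit1 had 0 reads in untreated B16, where a floor of 3 counts over the group makes it at least 39.0-fold higher in YUMM1.1. Ntn4, which also met the CPM limit only in YUMM1.1, had 37.7, 39.4 and 30.9 CPM there untreated and at most 0.634 CPM in an untreated B16 library.

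Members higher in B16 included 5 of 9 plexins, while the other 4 were higher in YUMM1.1. Of all genes tested, 33.4% were higher in B16 and 34.7% in YUMM1.1. Plxnc1 was lower in YUMM1.1 by a log2 of -7.89 ± 0.25 (edgeR adjusted p = 9.45e-14), in the same cells where its ligand Sema7a was higher. Epha3 had 71.4, 71.3 and 86.6 CPM in untreated B16 and 0 reads in untreated YUMM1.1, so it was at least 1501-fold higher in B16 by the same floor. The Slit receptors went opposite ways: Robo1 was lower in YUMM1.1 (-4.31 ± 0.23, edgeR adjusted p = 4.64e-11) and Robo2 higher (6.79 ± 0.40, edgeR adjusted p = 1.86e-10). Robo1 stood at 2.19, 2.40 and 2.62 CPM in untreated YUMM1.1, and Robo2 at 0.254, 0.398 and 1.55 CPM in untreated B16. The neuropilins went opposite ways as well, with Nrp2 lower in YUMM1.1 (-1.02) and Nrp1 higher (2.43). The 6 members not called between untreated lines were Ephb4, Efna4, Efnb3, Sema3e, Sema6b and Tenm4. Tenm4, for which the IFNG effects differed most, stood at 15.1 ± 1.68 CPM in untreated B16 and 10.2 ± 1.58 CPM in untreated YUMM1.1 (SD, n = 3; log2 -0.37 ± 0.20, edgeR adjusted p = 0.101).

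Beyond the families themselves, 77 co-receptors, signalling partners and other guidance genes were counted. In B16, 57 were tested: 11 rose, 23 fell and 23 were not called, with a median log2 change of -0.10, against 44.1% of all genes called (22.1% higher and 22.0% lower) and a median of -0.01. The called genes with the smallest adjusted p included L1cam, a cell adhesion molecule that associates with neuropilin-1, which fell from a mean of 79.2 to 7.94 CPM (log2 -3.14). Unc5c, a netrin receptor, fell from 172 to 44.6 CPM (log2 -1.75), and Fyn, a Src family kinase that acts below plexin-A and Eph receptors, fell from 89.1 to 27.2 CPM (log2 -1.52). Met, the receptor of hepatocyte growth factor that associates with class B plexins, rose from 374 to 999 CPM (log2 1.61). Adam10, a protease that cuts ephrins, rose from 134 to 470 CPM (log2 2.01), and Rnd3, an atypical small GTPase that binds plexins, rose from 8.19 to 29.9 CPM (log2 2.03). In YUMM1.1 edgeR called 0 of 63, where 4.56% of all genes were called, with 11 at an unadjusted p below 0.05. DESeq2 called 2 of them, Flt1 and Ptpn13, and limma-voom called Flt1 alone, genes named here after their values were seen. The difference between the lines was called for 24 of 66, positive for 18 and negative for 6, against 18.5% of all genes (9.95% positive and 8.51% negative).

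The authors' deposited tables give log2 fold changes of the same contrasts in the same study, so a shared sign is not independent evidence. All 26 members called here in B16 had the same sign there, with a median absolute difference in log2 of 0.0263 and the widest gap, 0.0918, at Tenm4. All 6 members called in YUMM1.1 also had the same sign in the authors' deposited tables, with a median absolute difference of 0.00135. Efnb3, called here in B16, had an unadjusted p of 0.1444 there, by a test that is not named.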

How the data were processed

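RNA-seq gene counts of 12 libraries were analysed. As deposited, these are whole-number raw counts by Ensembl gene ID. For each line the authors also deposited a comparison table with log2 fold changes, a test statistic (a score whose test is not named) and p-values that are not adjusted, which served for gene symbols and for the log2 values set beside those computed here. The build is GRCm38 per the submitters' processing notes. Aligner, counter, annotation release and strand: not given in the sources used here. Therefore reads in overlapping genes cannot be split: 12 reported members overlap an exon of another gene, 2 of them a protein-coding one.

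Counts were tested with edgeR 4.0.16 (filterByExpr, TMM factors, robust quasi-likelihood F test) in R 4.3.3. Treatment was tested within each line on 6 libraries, and the difference of effects and the untreated lines on all 12. Alternatives were DESeq2 1.42.0, limma-voom 3.58.1, RLE factors, library totals, other filters, a replicate block, all libraries in 1 fit, treated B16 libraries 1 and 2 as 1 sample, and each library left out. The SE was taken as the size of the log2 change divided by the root of the F statistic. CPM is counts over library totals, and RPKM uses the exon union of GENCODE M21. Fits were tested on simulated data with the same dispersion for all genes and libraries. No simulated library stood apart, so that test does not cover the uneven spread between libraries seen here. Floors (3 counts) and 95% exact binomial intervals cover counting error only.

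The members, the marker and pathway lists and the tests were chosen with earlier results of these data known. Values by library were planned for up to 10 called members per line with the largest change and a mean of at least 2 CPM, up to 8 with the largest difference between lines, the most abundant member of each family per length, and are given for further members beside them. Some are printed for 1 line or for untreated cells only, and for Tenm3 and Slit1 only a ratio or a floor is printed. Of the pathway list, the 3 called genes with the smallest adjusted p in each direction are named. Counts of treated B16 libraries 1 and 2 differed with a chi-square of 1.27 per degree of freedom, against 17.2 and 16.9 to library 3 and 1.55 to 3.26 between B16 controls. They were kept as separate samples.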

Additional observations from a re-analysis of the deposited data

Results flagged for a closer look

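The effect of IFNG differed between the lines, by the interaction test in edgeR, for 17 guidance genes. As log2 values of the effect in YUMM1.1 minus that in B16, the negative ones were Sema6d at -2.02, Sema7a at -1.44, Epha7 at -1.18 and Plxnd1 at -1.01. Among semaphorins the positive ones were Sema3c at 3.28, Sema6a at 2.58, Sema4c at 1.95, Sema4d at 1.07 and Sema3b at 0.94. Among receptors they were Plxnb3 at 2.77, Robo1 at 1.18, Nrp2 at 0.92, Ephb4 at 0.82, Plxnb1 at 0.72 and Ephb6 at 0.70. The ephrin Efnb1 stood at 1.51 and the teneurin Tenm4 at 5.02. In the alternative fits the call was lost in 15 of 20 for Ephb6, 13 for Plxnb3, 9 for Plxnb1, 8 for Epha7, 3 for Sema3b and 1 for Ephb4.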

How the results depend on the processing

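Among values of the guidance genes named by the rule, 1079 stayed on their side of the threshold under the alternative fits, 35 lost and 41 gained a call, and no called value changed sign. Some values that were not called did, such as the difference for Efna5, at 0.12 as reported and -0.13 without the third treated YUMM1.1 library. B16 counts stayed within 9 to 11 higher and 12 to 20 lower when each library was left out, and counts between untreated lines within 29 to 30 higher and 15 to 17 lower. In YUMM1.1, leaving out each library gave 2 to 3 higher and 0 to 4 lower. With no filter there were 6 higher and 8 lower, with DESeq2 5 and 6, with all 12 libraries in 1 fit 5 and 6, and with library totals 5 lower. The cause was not tested. The difference between lines ranged over 8 to 13 positive and 3 to 6 negative members with each library left out, and was 7 negative with no filter. Whether library numbers pair the samples was not settled. In B16, deviations of same-numbered libraries correlated at -0.016 to 0.411 and those of other pairs at -0.484 to 0.434. B16 control 3 correlated at 0.411 with treated library 3, and at -0.333 and -0.378 with treated libraries 1 and 2. In YUMM1.1 the same-numbered values were -0.558 to 0.122 and the others -0.394 to 0.619. With a replicate block, 10 members were higher and 18 lower in B16, 2 and 4 in YUMM1.1, and 12 positive and 6 negative for the difference. Shallow B16 libraries limit members of a few CPM.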
